A study of Medicago ruthenica with 3 samples.

Results

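The enzymes that take up sulfur and nitrogen into amino acids, and the enzyme that turns methionine into the methyl donor of the cell, were followed in leaf degradome libraries of *Medicago ruthenica*, a wild forage legume. A degradome library sequences RNA fragments with an uncapped 5′ end, which include the fragments left when a small RNA directs a cut in its target. All table rows with the gene symbol APR3, APS1, GS1 or SAMS were taken, together with all rows whose annotation names ATP sulfurylase, adenylylsulfate reductase, glutamine synthetase or S-adenosylmethionine synthase. This gave 15 of the 6912 transcripts in the table, 12 by annotation and 3 by the symbol alone, with 34 of the 11390 entries (an entry is 1 small RNA listed with 1 transcript). The authors kept only a small part of all entries as target pairs, by a cutoff on a score for mismatched bases. That cutoff was not applied here, so an entry is a listed pair and not an accepted target. The group of genes was chosen by measured values of these same libraries, since GS1, SAMS and APR3 had stood out in an earlier comparison of RW with DS. Their levels are therefore a description, and no p-value is given on them. An interval that leaves out 1 says only that 2 libraries differ by more than counting error, if each read was counted once.

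There was 1 library for each of 3 conditions, all from leaves of seedlings that were 4 weeks old when the treatment began. RW plants had no water for 15 days and were then rewatered for 2 days. DS plants had no water for 15 days, with relative soil moisture at 20% on the last day. CK plants were watered every 3 days and kept above 80%. CK and DS leaves were collected on day 15, and RW leaves 2 days after rewatering. RW thus has no control of its own sampling day. In RW/DS and RW/CK, rewatering and sampling day cannot be told apart. The labels speak of 3 biological replicates for each treatment, and whether their RNA was pooled into the degradome libraries is not given in the sources used here. No value below has a replicate check. The plants grew without added nutrients, so sulfate and nitrogen supply had no treatment of their own.

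Sulfate enters plant metabolism in the chloroplast. ATP sulfurylase joins it to ATP to make adenosine 5′-phosphosulfate (APS), and APS reductase (adenylylsulfate reductase) reduces it to sulfite on the way to cysteine. Glutamine synthetase fixes ammonium onto glutamate, with the chloroplast form GS2 taking up the ammonium of photorespiration and nitrate reduction and the cytosolic forms (GS1) serving nitrogen transport and recycling. S-adenosylmethionine synthase makes S-adenosylmethionine from methionine and ATP, and this is the methyl donor of the cell and the precursor of ethylene and polyamines. ATP sulfurylase is a textbook target of miR395 in Arabidopsis, but 0 entries of the table carried a miR395 name.

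The deposited table held 29617 reads in RW, 32719 in DS and 24790 in CK, and 1 read was worth 33.8, 30.6 and 40.3 RPM (reads per 1000000 reads of the table) in RW, DS and CK. The 15 transcripts took 215 reads in RW, 242 in DS and 122 in CK, which was 0.726% of the table in RW (exact 95% interval 0.632 to 0.829), 0.740% in DS (0.650 to 0.839) and 0.492% in CK (0.409 to 0.587). Of their 34 entries 12 (35.3%) were listed in all 3 libraries, against 17.0% of all entries in the table. As in any green tissue, there were reads on 2 Rubisco activase transcripts (742 in RW, 1713 in DS and 661 in CK). The same held for 11 chlorophyll a-b binding transcripts (246, 129 and 279), while the single Rubisco small subunit transcript had 36 reads in RW, 0 in DS and 4 in CK. No transcript was annotated as leghemoglobin or legumin, and 1 vicilin transcript had 9, 16 and 9 reads in RW, DS and CK. The table lists only transcripts paired with a small RNA, so a missing transcript does not show that its tissue was missing.

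Reads were sparse, and 8 of the 15 transcripts had at least 10 reads over the 3 libraries. The lowest of these 8 had 10 reads, and the highest of the other 7 had 7. The 8 held 554 of the 579 reads and are described one by one. Ratios are ratios of RPM with exact 95% intervals that cover counting error only. DS/CK, RW/DS and RW/CK share libraries and are not independent of each other. Levels are not compared between transcripts, because transcript lengths were not used here. A degradome level can change with the amount of the transcript as well as with its cutting. RNA amounts were not used here, so which of these changed was not tested.

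**Figure D1:**
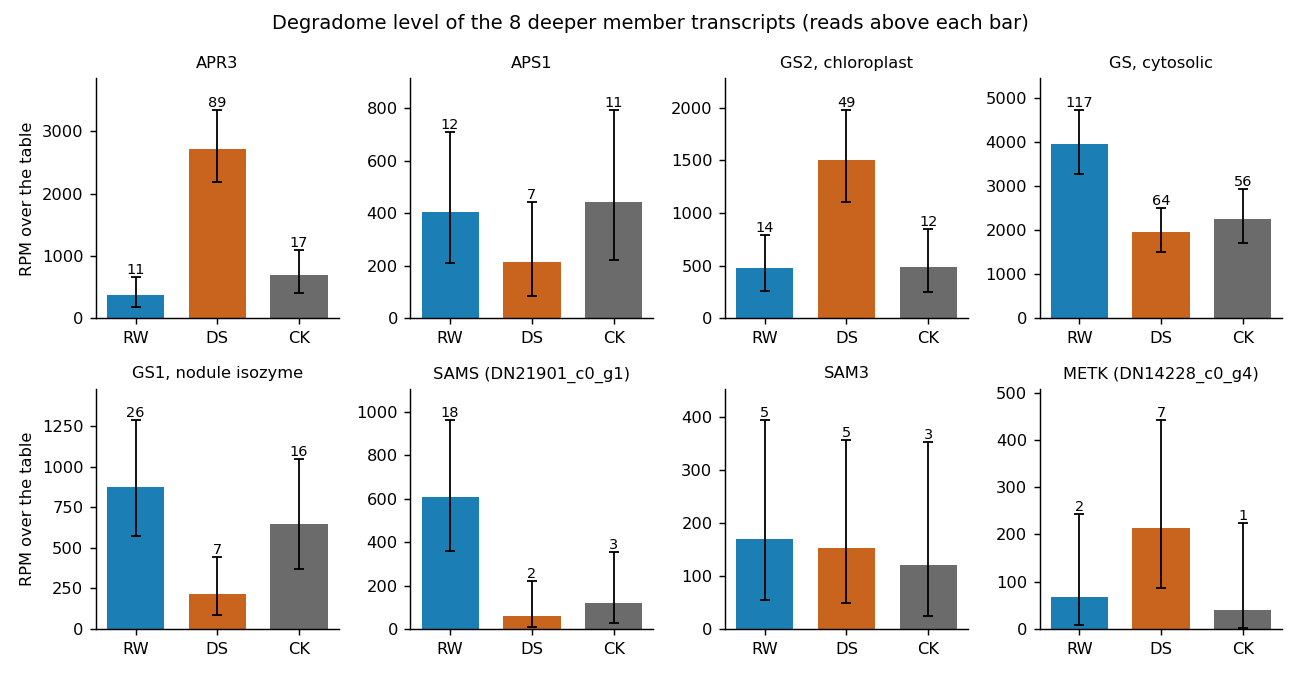
Level of the 8 transcripts with at least 10 reads, in RPM over the table, for the single RW, DS and CK library from left to right; bars are the values, error bars are exact 95% Poisson intervals and the numbers are reads. APR3 and GS2 have their tallest bar in DS, whereas the cytosolic glutamine synthetase and SAMS have theirs in RW.

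In sulfate reduction, APR3 (TRINITY_DN20684_c0_g1, APS reductase 3 of the chloroplast) was high in DS and low in the other libraries. It had 11 reads in RW, 89 in DS and 17 in CK, or 371, 2720 and 686 RPM. The Poisson interval in DS (2184 to 3347 RPM) lay above those of RW (185 to 665) and CK (399 to 1098), and those 2 overlapped. DS/CK was 3.97 (2.34 to 7.11). In RW the level was 7.32-fold lower than in DS (3.90 to 15.2). RW/CK was 0.542 (0.229 to 1.23), an interval that holds 1 but also a level well below CK.

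APR3 was the only transcript of its family in the table, and 11 entries made up its value. All 11 had their highest RPM in DS, by a narrow margin for mtr-MIR172b-p5. The largest entry, mtr-MIR2592bj-p3_2ss12TC19AT, had 4 reads in RW, 16 in DS and 0 in CK. The 3 entries of miR166 together had 2, 26 and 7 reads in RW, DS and CK, and the 2 entries of miR394 had 0, 19 and 2. MiR166 is known for cutting class III HD-ZIP transcripts and miR394 for an F-box transcript, so neither is a textbook partner of APS reductase. Without the miR166 and miR394 entries 9 reads were left in RW, 44 in DS and 8 in CK, and DS/CK was 4.17 (1.94 to 10.2) and RW/DS 0.226 (0.0970 to 0.469). With the largest entry of each library alone DS/CK was 2.42 (0.849 to 8.46), so that its interval took in 1, and RW/DS was 0.276 (0.0672 to 0.856).

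**Figure D2:**
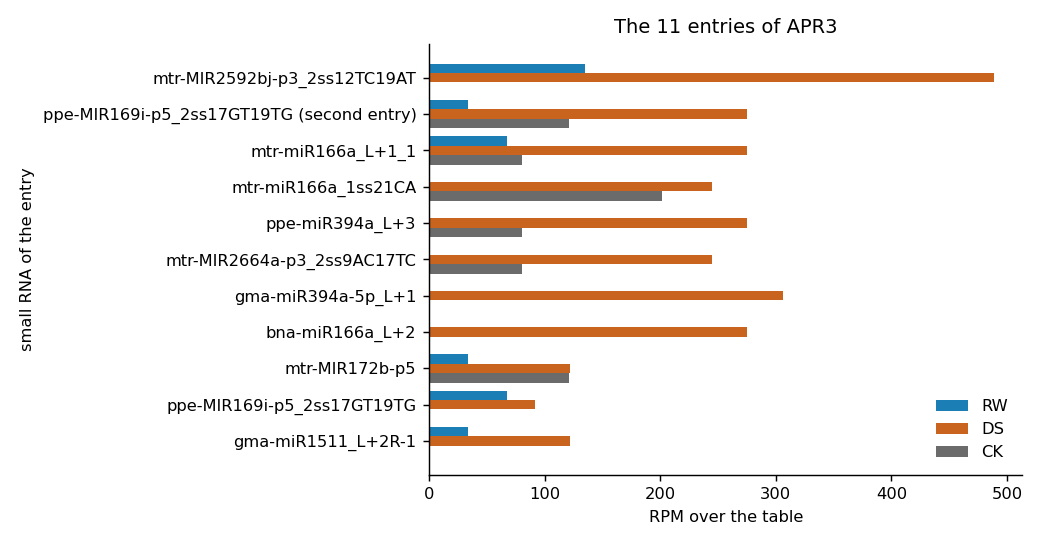
The 11 entries of APR3, each named for the small RNA it is listed with, in RPM over the table; bars show the RW, DS and CK library from top to bottom, and a missing bar is a value of 0. The DS bar is the longest in every entry, with the CK bar close to it for mtr-MIR172b-p5 (4 reads in DS and 3 in CK) and mtr-miR166a_1ss21CA (8 and 5).

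The other transcripts listed with these small RNAs gave mixed values. On the other 22 transcripts of mtr-miR166a_1ss21CA, DS/CK was 0.623 (0.516 to 0.751), and the interval of its APR3 entry (1.21, 0.350 to 4.71) takes in that value. On the other 99 transcripts of mtr-MIR2592bj-p3_2ss12TC19AT, DS/CK was 0.678 (0.600 to 0.767), while its APR3 entry had 16 reads in DS and 0 in CK. In RW/DS the same small RNA was lower both on those 99 transcripts (0.658, 0.568 to 0.762) and on APR3 (0.276). The small RNA ppe-MIR169i-p5_2ss17GT19TG, with 2 entries on APR3, also had the direction of APR3 on its 2115 other transcripts, with DS/CK at 1.41 (1.36 to 1.47) and RW/DS at 0.818 (0.789 to 0.848). Cleavage positions were not used here. Whether the listed small RNAs guided these cuts was not tested, and an uncapped 5′ end alone does not show it. Without positions 1 read may have entered the sum of a transcript more often than once, through different small RNAs. The intervals of such sums would then be too narrow even for counting error.

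The step before, ATP sulfurylase, did not show the DS peak of APR3. APS1 (TRINITY_DN15703_c0_g1, ATP sulfurylase 1 of the chloroplast) had 12 reads in RW, 7 in DS and 11 in CK, or 405, 214 and 444 RPM. All 3 Poisson intervals overlapped, with DS/CK at 0.482 (0.158 to 1.36), RW/DS at 1.89 (0.687 to 5.68) and RW/CK at 0.913 (0.369 to 2.28). The entries behind APS1 were not the same in the libraries. The entry of gma-MIR10423-p3_1ss3AC had 0 reads in RW, 7 in DS and 10 in CK. That of gma-MIR10423-p5_1ss3AC, named for the other arm of the hairpin, had 10, 0 and 0. Sequences were not used here, so whether these names stand for different small RNAs was not tested. APS2 (TRINITY_DN23024_c0_g1), the other annotated ATP sulfurylase, had 0 reads in RW, 5 in DS and 2 in CK.

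The symbol APS1 also stood beside 3 transcripts whose annotation is not an ATP sulfurylase. They were an acid phosphatase (TRINITY_DN12614_c0_g1) with 5 reads in RW, 0 in DS and 0 in CK, a glucose-1-phosphate adenylyltransferase of starch synthesis (TRINITY_DN25560_c0_g1) with 1 read in DS, and an unknown protein (TRINITY_DN20570_c0_g1) with 1 read in RW and 1 in DS. With them the ATP sulfurylase sum had RW/DS at 1.42 (0.667 to 3.09), and without them at 1.10 (0.454 to 2.69).

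Glutamine synthetase had 3 transcripts, which followed different patterns. The chloroplast form GS2 (TRINITY_DN22941_c0_g1) had 14 reads in RW, 49 in DS and 12 in CK, or 473, 1498 and 484 RPM. It was high in DS and near the same value in RW and CK, with DS/CK at 3.09 (1.62 to 6.39), RW/DS at 0.316 (0.161 to 0.581) and RW/CK at 0.977 (0.419 to 2.31). Both of its entries showed this order, with 7, 29 and 6 reads in RW, DS and CK for csi-miR160c-5p_1ss19CT and 7, 20 and 6 for ppe-MIR169i-p5_2ss17GT19TG. Their reads were equal in RW and in CK, so the 2 entries may hold the same reads in part and are not independent evidence. On the other 15 transcripts of csi-miR160c-5p_1ss19CT the ratio ran the other way, with DS/CK at 0.664 (0.496 to 0.887) and RW/DS at 1.42 (1.07 to 1.88). The name ppe-MIR169i-p5_2ss17GT19TG stands beside 2120 transcripts of the table, 5 of them among the 15.

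The cytosolic glutamine synthetase without a symbol (TRINITY_DN20323_c1_g1) had the most reads of the group, with 117 in RW, 64 in DS and 56 in CK, or 3950, 1956 and 2259 RPM. Here RW was the high library, and the intervals of DS and CK overlapped. RW/DS was 2.02 (1.48 to 2.78), RW/CK was 1.75 (1.26 to 2.45) and DS/CK was 0.866 (0.595 to 1.26). One entry, ath-miR8175_L-2_1ss12AG, held 99 of the reads in RW, 56 in DS and 48 in CK. On the other 61 transcripts listed with it RW/DS was 0.975 (0.763 to 1.25).

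GS1 (TRINITY_DN22730_c0_g1), whose annotation is the nodule isozyme of glutamine synthetase, had 26 reads in RW, 7 in DS and 16 in CK, or 878, 214 and 645 RPM. It was low in DS, with RW/DS at 4.10 (1.73 to 11.2), DS/CK at 0.331 (0.115 to 0.852) and RW/CK at 1.36 (0.703 to 2.71). The DS/CK interval took in 1 when reads were left unscaled (0.438, 0.152 to 1.12) or scaled to mapped reads (0.481, 0.167 to 1.24), and with mapped reads RW/CK was 2.09 (1.08 to 4.18). The entry of gma-MIR5368-p5_1ss1TC carried the pattern with 19, 2 and 14 reads in RW, DS and CK. The second entry, mtr-MIR156e-p3, had 7, 5 and 2 reads. The name of this isozyme comes from root nodules. No leghemoglobin transcript was in the table, which alone does not show that nodule tissue was missing.

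**Figure D3:**
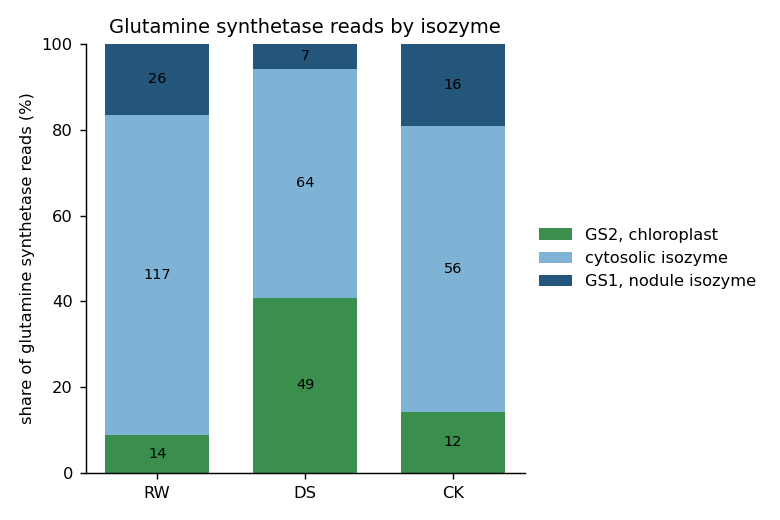
Share of all glutamine synthetase reads (%) held by each of the 3 transcripts in the RW, DS and CK library, with reads written in the bars. GS2 of the chloroplast has 14 of 157 reads in RW, 49 of 120 in DS and 12 of 84 in CK.

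The balance between the chloroplast and cytosolic forms needs no scaling between libraries. GS2 held 8.92% of the glutamine synthetase reads in RW (exact 95% interval 4.96 to 14.5), 40.8% in DS (32.0 to 50.2) and 14.3% in CK (7.61 to 23.6). The DS interval stood apart from the other 2, which overlapped. Summed over the 3 transcripts DS/CK of the family was 1.08 (0.812 to 1.45) with RW/DS at 1.45 (1.13 to 1.85) and RW/CK at 1.56 (1.19 to 2.06). Without GS2 the sum had DS/CK at 0.747 (0.531 to 1.05) and RW/DS at 2.23, with an interval beginning at 1.66. Without the cytosolic transcript of most reads RW/DS was 0.789 (0.512 to 1.21) and RW/CK 1.20 (0.720 to 2.01), so that both family calls rest on it. Family DS/CK was 1.57 (1.18 to 2.10) with mapped reads and 1.43 (1.07 to 1.91) without scaling. Within the cytosolic pair GS1 held 18.2% of the reads in RW (12.2 to 25.5), 9.86% in DS (4.06 to 19.3) and 22.2% in CK (13.3 to 33.6), and these intervals overlapped.

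S-adenosylmethionine synthase had 6 transcripts. SAMS (TRINITY_DN21901_c0_g1) had 18 reads in RW, 2 in DS and 3 in CK, or 608, 61.1 and 121 RPM, all in the single entry of mtr-MIR172b-p5. RW was the high library, with RW/DS at 9.94 (2.38 to 88.4) and RW/CK at 5.02 (1.47 to 26.6), and the width of these intervals comes from the few reads in DS and CK. DS/CK was 0.505 (0.0422 to 4.41). On the other 113 transcripts listed with mtr-MIR172b-p5, RW/DS was 1.04 (0.821 to 1.33) and RW/CK 1.33 (1.01 to 1.76), and on APR3 the same small RNA had 1 read in RW, 4 in DS and 3 in CK.

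The other transcripts of this family had few reads, and most had too few to show whether they shared this pattern. SAM3 (TRINITY_DN14228_c0_g1) had 5, 5 and 3 reads in RW, DS and CK, with RW/DS at 1.10 (0.254 to 4.80), an interval that overlaps that of SAMS. METK (TRINITY_DN14228_c0_g4) had 2, 7 and 1, with RW/DS at 0.316 (0.0320 to 1.66) and DS/CK at 5.30 (0.681 to 239). Its RW/DS interval lies below that of SAMS, but SAMS was chosen on this contrast. The remaining 3 transcripts had 3, 3 and 0 reads (METK, TRINITY_DN21901_c1_g1), 1, 1 and 1 (SAMS, TRINITY_DN14228_c0_g2) and 0, 1 and 0 (METK2, TRINITY_DN21901_c1_g3) in RW, DS and CK, too few to order. TRINITY_DN21901_c0_g1 thus held 62.1% of the family's reads in RW (18 of 29, interval 42.3 to 79.3), 10.5% in DS (2 of 19, 1.30 to 33.1) and 37.5% in CK (3 of 8, 8.52 to 75.5). Transcripts of one Trinity cluster can share reads, and how such reads were assigned is not given in the sources used here. For the family sum RW/DS was 1.69 (0.914 to 3.18), RW/CK 3.03 (1.35 to 7.68) and DS/CK 1.80 (0.752 to 4.75). Without TRINITY_DN21901_c0_g1 RW/DS was 0.715 (0.303 to 1.62) and RW/CK 1.84 (0.590 to 6.76), so that the RW/CK call rests on this transcript. With mapped reads DS/CK was 2.61 (1.09 to 6.90).

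**Figure D4:**
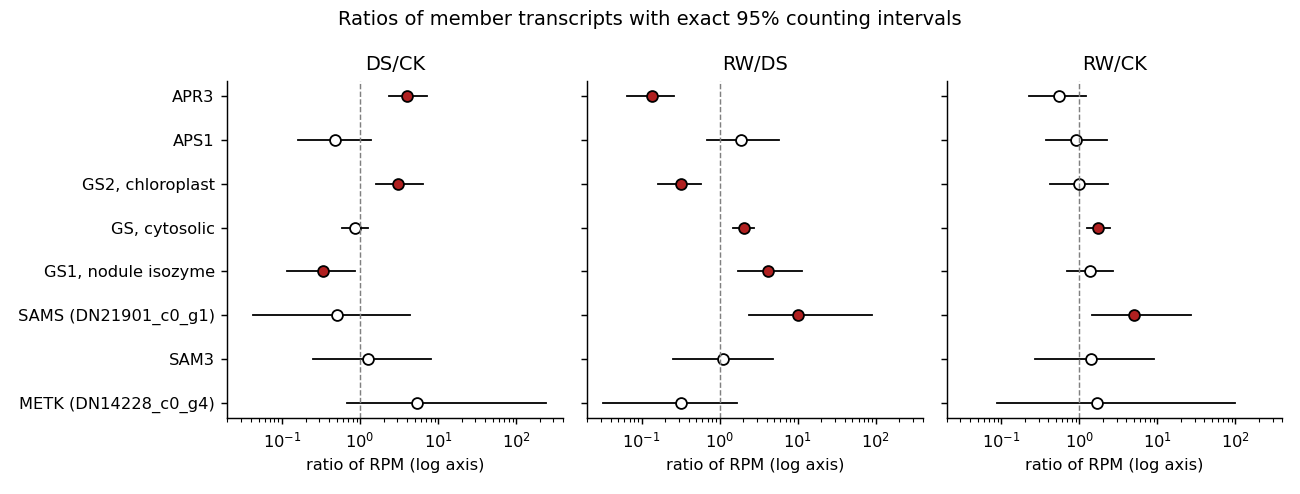
Ratios of RPM (log axis) of the 8 transcripts for DS/CK, RW/DS and RW/CK, with exact 95% intervals for counting error; red points have an interval that leaves out 1, white points do not, and the dashed line is a ratio of 1. APR3 (3.97 and 0.137) and GS2 (3.09 and 0.316) lie right of the line in DS/CK and left of it in RW/DS.

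Set against all transcripts of the table, such differences were not rare. In DS/CK 2 of the 5 members with at least 10 reads over both libraries were higher with an interval leaving out 1 (APR3 and GS2), against 16.1% of 928 transcripts, and 1 was lower (GS1), against 13.1%. In RW/DS 3 of 7 were higher (the cytosolic glutamine synthetase, SAMS and GS1), against 15.3% of 1045 transcripts, and 2 were lower (APR3 and GS2), against 14.3%. The members were chosen on this contrast. DS/CK and RW/CK share its libraries, so nothing is read from the member counts of any comparison. In RW/CK 2 of 6 were higher (the cytosolic glutamine synthetase and SAMS), against 12.2% of 893 transcripts, and 0 were lower, against 10.2%. Scaling changed the split over the whole table. With mapped reads 296 transcripts were higher and 60 lower in DS/CK (149 and 122 here). For RW/DS the split was 179 and 141 (160 and 149 here), and for RW/CK it was 273 and 34 (109 and 91 here). Without scaling the splits were 257 and 71, 129 and 170, and 158 and 62 for DS/CK, RW/DS and RW/CK, and with the median of ratios they were 160 and 119, 131 and 167, and 97 and 100. The median log2 ratio of all transcripts, which was 0.08, 0.10 and 0.13 for DS/CK, RW/DS and RW/CK, became 0.62, 0.19 and 0.75 with mapped reads and 0.48, -0.04 and 0.39 without scaling. APR3 and GS2 in DS/CK, the 5 named members in RW/DS and both in RW/CK stayed on their side of 1 under each of these scalings.

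**Figure D5:**
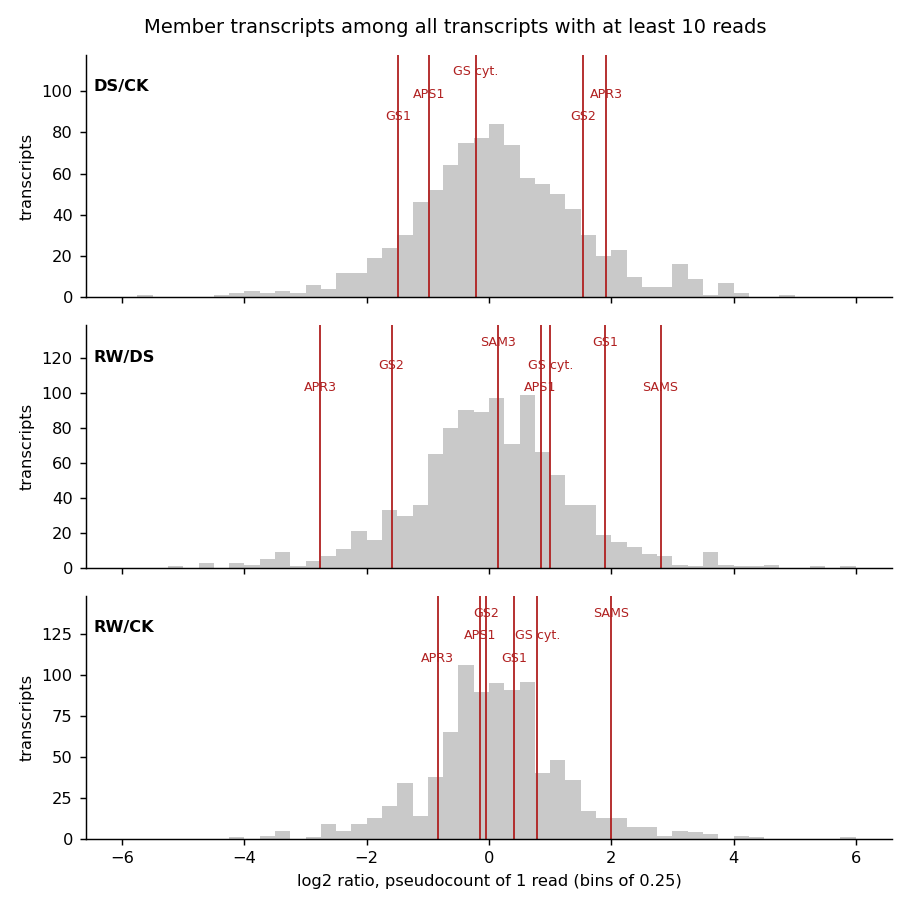
Number of transcripts by log2 ratio (pseudocount of 1 read, bins of 0.25) for DS/CK, RW/DS and RW/CK, over all transcripts that reach 10 reads in the pair of libraries compared; red lines are the members that reach that depth. The members spread over both sides of the distribution in DS/CK and RW/DS, with APR3 and SAMS farthest out in RW/DS.

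Around these enzymes, other genes of the same pathways were matched on annotation words. Of sulfate uptake and cysteine synthesis, 10 transcripts were in the table and 3 had at least 10 reads. Both of the sulfate transporters among them were highest in DS, but with DS/CK intervals that held 1. SULTR3;3 had 9, 25 and 9 reads in RW, DS and CK, with RW/DS at 0.398 (0.163 to 0.881) and DS/CK at 2.10 (0.950 to 5.12). SULTR3;1 had 0, 12 and 3 reads, with DS/CK at 3.03 (0.818 to 16.7). With RW set to the floor of 3 reads it was 3.62-fold lower than in DS. The exact interval begins at 2.52-fold. CAS2, a mitochondrial enzyme of the cysteine synthase family that makes cyanoalanine, was low in both treated libraries with 6, 5 and 18 reads, and DS/CK was 0.210 (0.0611 to 0.588) with RW/CK at 0.279 (0.0907 to 0.734). Of the members of this list with at least 10 reads over the libraries compared, 0 were higher and 1 lower of 3 in DS/CK (all transcripts 16.1% and 13.1%), 0 and 2 of 3 in RW/DS (15.3% and 14.3%) and 0 and 1 of 2 in RW/CK (12.2% and 10.2%). Its median log2 ratio differed from that of all transcripts by 0.90, -1.34 and -1.83 in DS/CK, RW/DS and RW/CK, over 3 transcripts. At a minimum of 20 reads the DS/CK value turned to -0.61.

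The words for the methionine cycle and the use of S-adenosylmethionine matched 81 transcripts, 14 of them with at least 10 reads. Of those with at least 10 reads over the libraries compared, 1 was higher and 3 lower of 8 in DS/CK (all transcripts 16.1% and 13.1%), 3 and 1 of 9 in RW/DS (15.3% and 14.3%), and 1 and 1 of 10 in RW/CK (12.2% and 10.2%). The median log2 ratio of the list differed from that of all transcripts by -0.11, 0.12 and 0.01 in DS/CK, RW/DS and RW/CK, and all 3 values changed sign at a minimum of 20 reads (0.19, -0.22 and -0.11). The words also matched enzymes that do not use S-adenosylmethionine, such as serine hydroxymethyltransferase (TRINITY_DN25793_c1_g3, 14, 24 and 13 reads in RW, DS and CK). SAMDC, which decarboxylates S-adenosylmethionine for polyamine synthesis, had 2, 20 and 3 reads, with DS/CK at 5.05 (1.50 to 26.5) and RW/DS at 0.110 (0.0125 to 0.455). It was thus high in DS. The caffeic acid O-methyltransferase 7OMT, which methylates phenolic compounds, was by far the deepest of the list with 2015, 1015 and 882 reads, and RW/DS was 2.19 (2.03 to 2.37). EMB1691, a methyltransferase-like protein, had 10, 3 and 10 reads with DS/CK at 0.227 (0.0402 to 0.883), and CHLM of chlorophyll synthesis had 12, 13 and 9 with all 3 intervals holding 1.

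Glutathione, the main thiol made from cysteine, had 23 matched transcripts and 10 with at least 10 reads. In DS/CK 1 of 5 was higher and 0 lower (all transcripts 16.1% and 13.1%), in RW/DS 2 of 8 were higher and 1 lower (15.3% and 14.3%), and in RW/CK 3 of 7 were higher and 0 lower (12.2% and 10.2%). The glyoxalase GLX1 (TRINITY_DN20166_c1_g2), which uses glutathione to clear methylglyoxal, had 6, 25 and 6 reads in RW, DS and CK, with DS/CK at 3.16 (1.26 to 9.41) and RW/DS at 0.265 (0.0890 to 0.662). GRXS16, annotated as a glutathione dehydrogenase, had 22, 12 and 7 reads with RW/CK at 2.63 (1.09 to 7.29). A glutathione S-transferase (TRINITY_DN23160_c0_g3; 24, 40 and 19 reads) and GSTU22 (10, 17 and 10) had intervals that held 1 in all 3 comparisons. The list's median log2 ratio stood 0.21, -0.17 and 0.06 from that of all transcripts in DS/CK, RW/DS and RW/CK, and the last turned to -0.08 at a minimum of 20 reads.

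Nitrogen assimilation had 12 matched transcripts and 4 with at least 10 reads, with 0 of 3 called in DS/CK (16.1% of all transcripts higher and 13.1% lower), 1 lower of 4 in RW/DS (14.3%) and 1 higher of 3 in RW/CK (12.2%). The one lower in RW/DS was NIA, the nitrate reductase that starts nitrate assimilation, with 2, 12 and 3 reads in RW, DS and CK and a ratio of 0.184 (0.0200 to 0.827). The one higher in RW/CK was the ammonium transporter AMT1-2, with 12, 5 and 1 reads and a ratio of 10.0 (1.49 to 429). GLU1, the ferredoxin-dependent glutamate synthase that works beside GS2 in the chloroplast, had 28, 29 and 15 reads and no DS peak, with DS/CK at 1.46 (0.760 to 2.94) and RW/DS at 1.07 (0.611 to 1.86). The ammonium transporter AMT1-1 had 10, 20 and 14 reads, with all 3 intervals holding 1. The median log2 ratio over the 4 transcripts stood 0.76, -0.45 and -0.17 from that of all transcripts in DS/CK, RW/DS and RW/CK.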

How the data were processed

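Degradome reads (single-end, 50 bases) from 1 leaf library each of RW, DS and CK were searched by the authors for cleavage sites with ACGT101-DEG, which builds on CleaveLand4, against their own Trinity assembly of the species. The deposited values are RPM over the table, and dividing by the value of 1 read gave whole numbers for 99.95%, 100.00% and 99.98% of the values in RW, DS and CK (tolerance 0.01 read). Reads were summed per transcript. Ratios of RPM have exact conditional 95% intervals, shares exact Clopper-Pearson intervals. As no molecular identifiers mark PCR copies, all intervals and the floor of 3 reads account for counting error alone. They take each read as counted once. A two-sided exact binomial test with Benjamini-Hochberg adjustment over all transcripts compares libraries, not conditions, and was an alternative. The calculation was tested on simulated independent Poisson counts, which is the model the intervals assume. The simulation held no PCR copies, no reads counted more than once and no differences between plants. It therefore checks the calculation and not how the intervals hold in these data. Members and the 4 pathway lists were chosen with earlier results of these data known. Named were members with at least 10 reads, and from each list the 4 deepest transcripts and any with at least 20 reads and a ratio past 4-fold. Alternatives changed the scaling, the counting of entries, the read minimum, the call rule, the pseudocount and the members. Python 3.11.15, numpy 2.4.6, pandas 2.3.3, scipy 1.17.1 and matplotlib 3.10.9 were used. Sequences, positions and lengths of transcripts were not used here.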

Additional observations from a re-analysis of the deposited data

How the results depend on the processing

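Of 150 recomputed values 133 stayed near the value reported, but this count includes values that had no way to change. List medians stand against all transcripts and so do not change with scaling. Annotation words alone left the members of every family but ATP sulfurylase as they were. Counting same-valued entries once left every family ratio as it was. It drops an entry only where all 3 libraries match, so it misses reads shared in part. Of the family ratios 8 passed to the other side of 1, as did 5 list medians with respect to 0, and 1 of these 8, glutamine synthetase in RW/DS, had an interval that left out 1 before. Intervals of 4 family ratios came to take in 1, and 3 came to leave it out. Without its deepest transcript the family ratio was 2.65 for ATP sulfurylase in DS/CK (0.816 with it) and 1.52 for glutamine synthetase in DS/CK (1.08). In RW/DS glutamine synthetase turned to 0.789 (1.45), S-adenosylmethionine synthase to 0.715 (1.69) and ATP sulfurylase to 0.947 (1.42). APS reductase has 1 transcript and gave no such value. Scaled to mapped reads, glutamine synthetase stood at 1.57 in DS/CK and 2.41 in RW/CK, and ATP sulfurylase in DS/CK at 1.18 (1.08 without scaling). By annotation alone ATP sulfurylase in RW/CK was 0.773 (1.16). With the largest entry alone, RW/DS of APS reductase was 0.276. Without GS2, an alternative chosen after seeing the data, glutamine synthetase was 0.747 in DS/CK and 2.23 in RW/DS. With a ratio of at least 2 as the rule, 1 member passed in RW/CK. Raising the minimum to 20 reads, which leaves fewer transcripts, gave list medians (log2, against all transcripts) of -0.61 for sulfate (0.90 at 10 reads), 0.19 for methionine (-0.11) and 0.23 for nitrogen (0.76) in DS/CK, of -0.45 (-1.34) for sulfate, -0.22 (0.12) for methionine and -0.58 (-0.17) for glutathione in RW/DS, and of -1.07 (-1.83) for sulfate in RW/CK. Under the exact binomial test with Benjamini-Hochberg adjustment 102 transcripts were higher and 85 lower of 928 in DS/CK, 104 and 88 of 1045 in RW/DS and 63 and 56 of 893 in RW/CK. No paired analysis was possible because each condition has 1 library, and no library could be left out. Where a member has few reads its interval is wide, and a difference of several fold would not be detectable.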

Other observations

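Transcripts whose share of RPM over RW, DS and CK lay nearest to that of each namesake gene were looked up among 689 transcripts with at least 20 reads. For APR3, with 9.8% of its RPM in RW, 72.0% in DS and 18.2% in CK, the nearest were the chloroplast beta-amylase BAM3 (3, 21 and 3 reads in RW, DS and CK, at a distance of 5.09 percentage points), SAMDC (5.53) and a calmodulin (TRINITY_DN17467_c0_g4, 6.53). Nearest to APS1 were RPPL1, a P-loop protein with leucine-rich repeats (0.619), a translation initiation factor 5B (TRINITY_DN23289_c1_g2, 1.07) and the antenna protein LHCB4.1 (1.45). Nearest to GS1 were the peroxidase PER42 (1.81), ERD4 (1.86) and CDC48 (2.78). SAMS had no close neighbour, and the nearest were ARF8 (17, 0 and 3 reads in RW, DS and CK, at 9.81), the antenna protein AB80 (12.5) and NAC021 (12.7). With 3 libraries these are descriptions of single values.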
